A study of Sus scrofa with 24 samples.

Results

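The mechanistic target of rapamycin (mTOR) pathway was followed here through 10 regulator genes: the kinase gene MTOR, its complex partners RPTOR, RICTOR, MLST8 and AKT1S1, the upstream switch made of TSC1, TSC2 and RHEB, the stress-induced inhibitor DDIT4, and the target kinase gene RPS6KB1. They were chosen by name, by matching the gene identifiers of the deposited count tables to pig symbols, and 9 of the 10 matched 1 entry each among 38882 listed genes. DDIT4 was not analysed here. All 9 passed the filter on low counts (at least 1 CPM, the count scaled to library size, in at least 3 libraries), as did 16326 genes in all.

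The samples were the hippocampi of 24 piglets (Sus scrofa, PIC Camborough dams crossed with PIC 359 sires), each taken at post natal day 14 from formula-fed animals. Piglets were either small (SGA) or appropriate (AGA) for gestational age at birth, and were fed a control formula (CON) or 1 in which part of the fat was supplied in hydrolyzed form (HF), which makes 4 groups of 6 piglets (AGA CON and SGA CON, AGA HF and SGA HF). By the paper's account of the formulas, HF also held lecithin and cholesterol, which CON did not, and only CON held soy oil. The diet comparison is therefore of whole formulas. The animals came from 12 litters, each of which gave 1 SGA and 1 AGA piglet of the same sex on the same formula. The exact permutation tests therefore compared size within litters and diet between 6 litters and 6 litters. The model fitted across all genes (edgeR) had no term for litter. Its p values and intervals take piglets as the replicates, also for diet. The litters arrived in 2 cohorts of 12 piglets. SGA is a natural state of low birth size, so it is not a single defined lesion, and RNA from the whole hippocampus mixes every cell type.

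MTOR is the catalytic kinase of a pair of protein complexes. In complex 1, RPTOR recruits substrates, AKT1S1 (PRAS40) restrains the kinase, and the outcome is growth, with more translation and less autophagy. In complex 2, RICTOR takes the place of RPTOR, and AKT is among the substrates, while MLST8 belongs to both. RHEB in its GTP-bound form activates complex 1, the TSC1 and TSC2 proteins switch RHEB off, and DDIT4 acts through TSC2. In the young brain the pathway is known for its part in neuronal growth, synapses and myelination. Most of its regulation is through phosphorylation, which RNA counts do not measure.

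Total counts on the listed genes ran from 6017336 to 9284355 per library (median 7346072), so that 3 counts were worth 0.323 to 0.499 CPM. Brain cell markers, given here by the highest of a list, were present in every library. The synaptic gene SNAP25 stood at 497 to 1003 CPM and NEUROD2 of excitatory neurons at 335 to 578. The astrocyte gene GFAP stood at 6733 to 11044 CPM and the myelin gene MBP at 3758 to 10193. Of 4 markers listed for hippocampal granule and pyramidal neurons, 3 matched an entry, 2 passed the filter and 1 was at 0 in a library. Oligodendrocyte markers (4 of 4 found) summed lower in the SGA piglet than in its AGA littermate in 11 of the 12 litters, by -0.30 ± 0.32 on the log2 scale (mean ± SD), while 0 of the 4 were called singly for size. The sum is of CPM, so MBP, the highest of the 4, weighs most in it. This list was singled out as the most one-sided of the marker lists. In the others SGA summed higher in 5 to 8 litters. One SGA HF library, replicate 4 of litter 7, stood apart with a sum of 362 CPM over the pituitary markers against at most 36.8 in the other 3 groups, and its part in the members' values is given by leaving out that litter. In bulk tissue, fewer cells of a type and less RNA per cell cannot be told apart.

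Compared per length, the members spanned a wide range. RHEB had the highest level, at 93.0 ± 11.7 CPM per kb of exon (mean ± SD over 24 libraries), although its gene model of 555 bases is a coding length only. AKT1S1 followed at 53.7 ± 10.8, MLST8 at 37.4 ± 4.22, TSC2 at 30.0 ± 1.75 and RPTOR at 23.1 ± 1.83 CPM per kb. MTOR itself stood in the middle at 13.0 ± 0.750 CPM per kb, above 66.8% of the tested genes. RPS6KB1 (5.17 ± 0.505), TSC1 (3.25 ± 1.11) and RICTOR (2.12 ± 0.347) were the lowest in CPM per kb, and RICTOR was above 31.6% of the tested genes. The order was the same in nearly every animal: each gene exceeded the next in 24 of 24 libraries, except TSC2 over RPTOR (23 of 24) and TSC1 over RICTOR (21 of 24). The scaffold of complex 1 thus had a higher level per length than the scaffold of complex 2, and TSC2 a higher one than TSC1, in all 4 groups. RICTOR and MTOR have the longest gene models, at 9637 and 8709 bases, while TSC1, next to RICTOR in level, has 3488. The average RNA quality number of the samples was low, which the paper puts down to pre-spliced RNA, and the libraries were polyA-selected. The part of RNA quality and transcript length in this order was not tested.

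**Figure D1:**
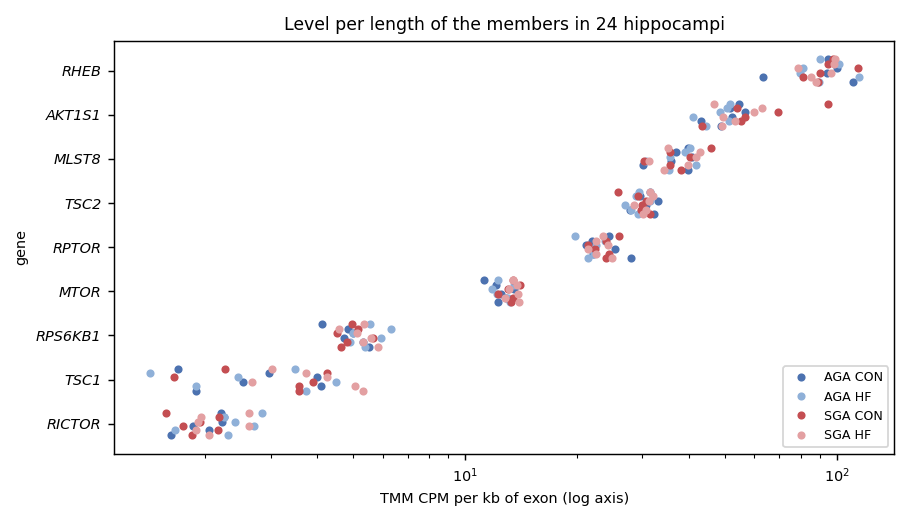
Level of each member per kb of exon (TMM CPM per kb, log axis) in the 24 libraries, with 1 point per piglet coloured by group. RHEB lies at the top with a mean of 93.0 and RICTOR at the bottom with 2.12, and the 4 groups overlap for every gene.

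The genes also differed in how much they varied between piglets of a group. The within-group coefficient of variation of the CPM was smallest for MTOR (4.98%) and TSC2 (5.61%), against counting errors of 3.44% and 2.78%. It was largest for TSC1 (33.2%, with a counting error of 10.8% on 30 to 137 counts per library), followed by AKT1S1 (18.7% against 3.06%) and RICTOR (15.3% against 8.07%). TSC1, which encodes the stabilizing partner of TSC2, therefore carried the least precise comparisons, and MTOR the most precise.

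The first question was whether the pathway differed between SGA and AGA piglets. Across all genes 78 of 16326 were called for size (0.478%) by edgeR's quasi-likelihood test at a false discovery rate (FDR) of 0.4, a threshold taken from the study. By that rule 0 of the 9 members were called, with FDR values from 0.645 to 0.987. DESeq2 and limma voom also called 0 members, and 210 and 53 of the 16326 genes. With the FDR taken within each contrast MTOR was called, as were 7.35% of all genes, and without litter 5 AKT1S1 was called, as were 7.75% of all genes. An unadjusted p under 0.05 was found for 2 of the 9, MTOR and AKT1S1, and for 10.6% of all genes. The fitted log2 fold changes of the members ran from -0.05 to 0.16 with a median of 0.018, where the median over all tested genes was -0.0023.

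MTOR (gene 100127359, chromosome 6, 65191742 to 65317489 on the minus strand of Sscrofa10.2, 58 exons) was 1 of the 2 members with an unadjusted p under 0.05. In AGA CON piglets it ran from 97.8 to 118 CPM with a median of 108. AGA HF piglets ran from 103 to 118 CPM with a median of 110. In SGA CON piglets the range was 107 to 123 CPM with a median of 116, and in SGA HF piglets 111 to 121 CPM with a median of 119. The SGA groups sat a little higher, and all 4 ranges overlapped. The SGA piglet had the higher value in 9 of 12 litters, 5 on HF and 4 on CON, and the mean within-litter difference was 0.09 ± 0.10 log2 CPM (SD, n = 12 litters; exact two-sided sign-flip permutation test, p = 0.0107). The fitted fold change was 1.07 (95% interval 1.01 to 1.14), or 0.10 ± 0.040 on the log2 scale (SE), with an edgeR FDR p of 0.645.

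AKT1S1 (gene 100519715, chromosome 6, 50610706 to 50620015, minus strand, 6 exons), the gene of the PRAS40 inhibitor of complex 1, had the larger size difference. Its AGA CON range was 114 to 151 CPM (median 138), and its AGA HF range 109 to 138 CPM (median 132). SGA CON piglets spread from 116 to 252 CPM (median 149), and SGA HF piglets from 124 to 167 CPM (median 136). The top SGA values lay beyond the AGA ones, and the lower SGA values fell inside the AGA range. SGA was higher in 10 of 12 litters, 5 of 6 on each diet, by 0.20 ± 0.26 log2 CPM (exact sign-flip permutation p = 0.0161). The SGA CON piglet of litter 12 had the highest value of all, and without its litter the mean difference was 0.14 (exact p = 0.0322). In the fit the fold change was 1.09 (95% interval 1.01 to 1.18) with an edgeR FDR p of 0.683.

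Read against all genes, these counts are close to the background. The sign-flip test gave an exact p under 0.05 in 2 of 9 members and in 12.6% of the 16326 genes. Adjusted over all tested genes for size alone, the exact p was 0.238 for MTOR and 0.272 for AKT1S1, and 12.7% of the genes were under 0.4 on that scale. Both differences had the same sign in the 2 cohorts. MTOR differed by 0.067 in cohort 1 (exact p = 0.125) and by 0.12 in cohort 2 (exact p = 0.0938), and AKT1S1 by 0.13 (exact p = 0.188) and 0.27 (exact p = 0.0938). With 6 litters the smallest p the sign-flip test allows is 0.0313. Without litter 7 the differences were 0.089 for MTOR and 0.19 for AKT1S1. The oligodendrocyte markers, lower in SGA in 11 litters, summed to 10028 to 13288 CPM in AGA CON, 6941 to 13859 in AGA HF, 6661 to 10481 in SGA CON and 5894 to 12677 in SGA HF, with none of the 4 at 0. Their part in the MTOR and AKT1S1 values was not tested.

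**Figure D2:**
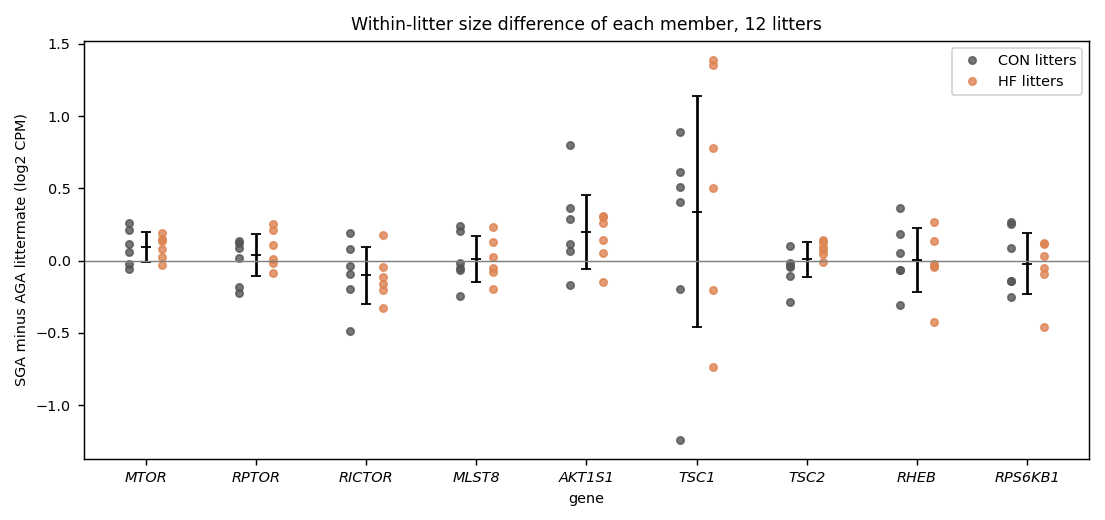
SGA minus AGA difference in log2 CPM between littermates for each member, with 1 point per litter (6 CON litters in grey, 6 HF litters in orange) and the mean ± SD over 12 litters in black. Most points lie above 0 for MTOR (9 of 12) and AKT1S1 (10 of 12), while TSC1 spreads from -1.24 to 1.39.

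The other complex genes did not pass the size test. RPTOR (gene 100512677, chromosome 12, 1614075 to 1710327, minus strand, 29 exons) was higher in the SGA piglet in 8 of 12 litters, with a mean difference of 0.04 ± 0.15 log2 CPM (exact p = 0.385). RICTOR (gene 100519575, chromosome 16, 25357044 to 25498055, minus strand, 39 exons) was lower in the SGA piglet in 9 of 12 litters, with a mean difference of -0.10 ± 0.20 (exact p = 0.103). The RICTOR value came from 1 cohort: the mean was -0.23 over the 6 litters of cohort 2 (exact p = 0.0313, the smallest that 6 litters allow) and 0.025 over those of cohort 1 (exact p = 0.688). Whether the cohorts differed was not tested. Leaving out litter 2 or litter 3 also took the RICTOR p to 0.0410 (exact sign-flip test), with means of -0.13, and leaving out litter 12 gave a mean of -0.066 (exact p = 0.206). The share of all genes with so low a p in these subsets is not given here. MLST8 (gene 100738908, chromosome 3, 42394842 to 42398552, plus strand, 9 exons) had a mean difference of 0.01 ± 0.16 (exact p = 0.808). It shares 10 exon bases with BRICD5 on the other strand, and the counting used strand.

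Of the upstream switch, TSC1 (gene 100154726, chromosome 1, 306795196 to 306819962, minus strand, 18 exons) had the widest spread of size differences, from -1.24 to 1.39 log2 CPM over the litters. Its mean was 0.34 ± 0.80 with SGA higher in 8 of 12 litters (exact p = 0.167), and leaving out litter 8 raised it to 0.48. In the fit the log2 fold change of TSC1 for size was smaller, at 0.16 (95% interval -0.087 to 0.40). TSC1 levels ran from 5.88 to 14.3 CPM in AGA CON (median 9.57) and from 4.94 to 15.6 in AGA HF (median 10.4). They ran from 5.76 to 14.8 CPM in SGA CON (median 12.5) and from 9.28 to 18.5 in SGA HF (median 13.9). The SGA medians were above the AGA ones, but each group contained both low and high piglets. TSC2 (gene 100505408, chromosome 3, 42245971 to 42282092, plus strand, 42 exons), which carries the GTPase-activating function, had a mean size difference of 0.0085 ± 0.12 (exact p = 0.824). RHEB (gene 100516050, chromosome 18, 6029721 to 6072123, minus strand, 8 exons) had 0.0033 ± 0.22 (exact p = 0.961). RPS6KB1 (gene 100127158, chromosome 12, 37386770 to 37434407, plus strand, 15 exons), the gene of the S6 kinase that complex 1 activates, had -0.02 ± 0.21 (exact p = 0.736). For these 3 genes the fitted 95% intervals of the SGA to AGA fold ran from 0.956 to 1.07 (TSC2), 0.921 to 1.07 (RHEB) and 0.887 to 1.08 (RPS6KB1). These intervals are for the size effect averaged over the formulas, with piglets as the replicates. Within a formula the shift can be larger: for TSC2 the interval was 0.909 to 1.06 on CON and 0.962 to 1.13 on HF.

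**Figure D3:**
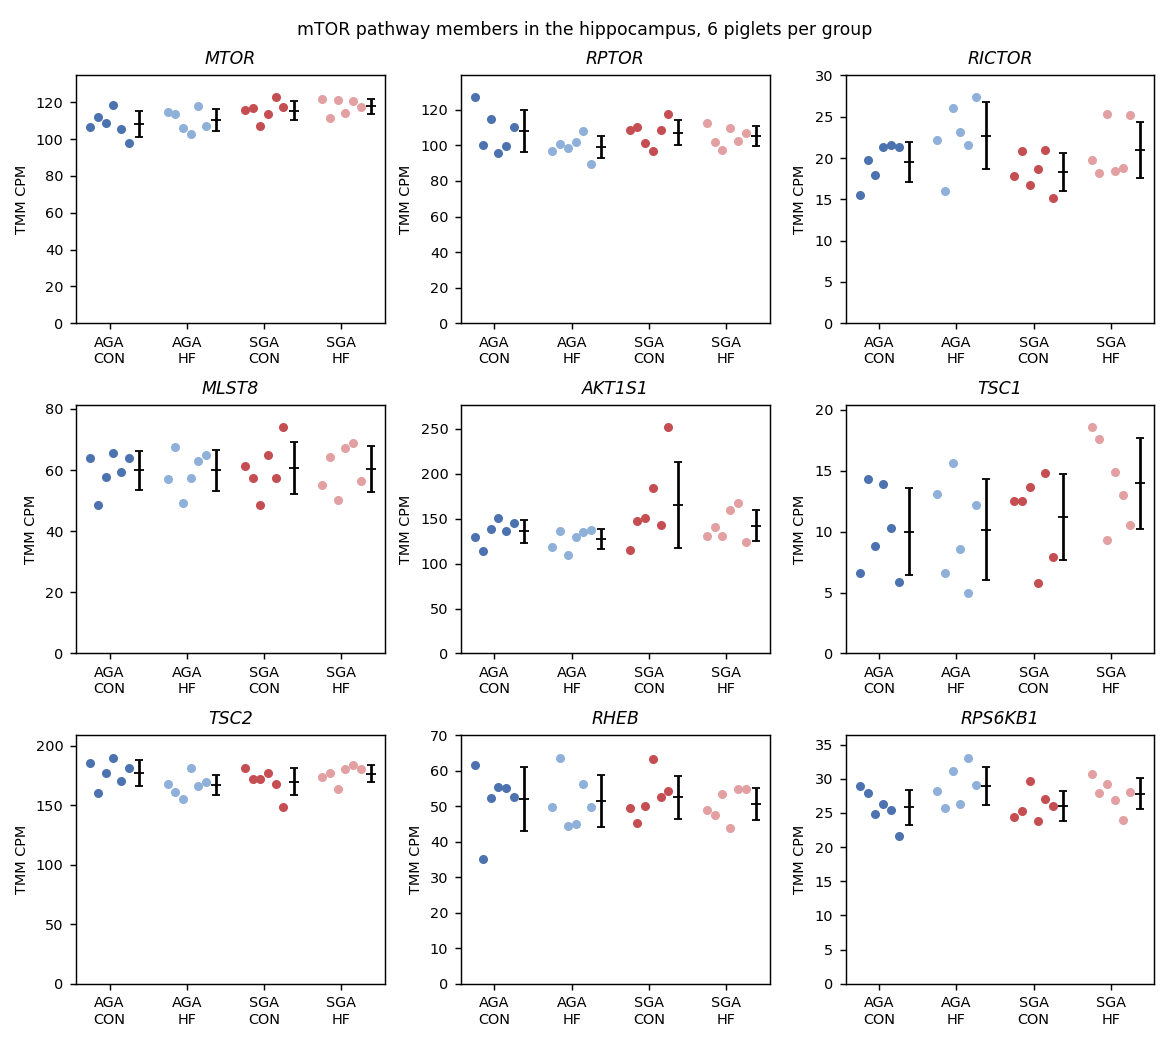
TMM CPM of each member in the 4 groups, with 1 point per piglet (6 per group) and the group mean ± SD as a black bar beside the points, on axes from 0. Group ranges overlap in all 9 panels, and the single highest AKT1S1 value (252 CPM) is an SGA CON piglet.

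The second question was whether the HF formula changed the pathway. By edgeR, 26 genes were called for diet (0.159% of those tested), and 0 of the 9 members, whose FDR values were 0.807 or more and of which 0 had an unadjusted p under 0.05. The members' log2 fold changes of HF against CON ran from -0.073 (AKT1S1) to 0.19 (TSC1), with a median of 0.010 beside 0.0020 over all genes. For MTOR the HF to CON fold was 1.00 (95% interval 0.944 to 1.06).

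RPS6KB1 was the member with the clearest difference between the litters of the 2 formulas. Its levels were 21.6 to 29.0 CPM in AGA CON (median 25.8) and 25.8 to 33.1 in AGA HF (median 28.6). In SGA CON they were 23.8 to 29.7 CPM (median 25.6) and in SGA HF 24.03 to 30.7 (median 28.0). The HF medians were higher at both sizes, and the ranges overlapped. The mean of the 2 littermates ran from 4.75 to 4.93 log2 CPM in HF litters and from 4.58 to 4.78 in CON litters, with 4 of 6 HF litters above all 6 CON litters. The difference was 0.13 log2 CPM (4.83 ± 0.072 against 4.71 ± 0.072, mean ± SD of 6 litters; exact two-sided permutation test over all splits of the litters, p = 0.0130). Among all genes 4.1% had an exact p under 0.05 for diet, against 1 of the 9 members, and adjusted over all genes the exact p of RPS6KB1 was 1.00. It was 0.10 in cohort 1 and 0.15 in cohort 2 (exact p = 0.2 and 0.1, the latter the smallest that 3 against 3 litters allow), and 0.15 without litter 7. The fit gave a fold of 1.08 (95% interval 0.975 to 1.19) with an edgeR FDR p of 0.820.

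RICTOR litter means were 4.45 ± 0.23 log2 CPM on HF and 4.25 ± 0.14 on CON, a difference of 0.19 (exact permutation p = 0.126). The RPTOR difference had the other sign, at -0.072 (exact permutation p = 0.160). It was -0.045 without litter 2 (exact p = 0.320) and -0.10 without litter 8 (exact p = 0.0303), and -0.12 in cohort 1 and -0.023 in cohort 2. Within each library the RPTOR to RICTOR log2 CPM difference averaged 2.45 ± 0.33 in AGA CON, 2.13 ± 0.32 in AGA HF, 2.54 ± 0.22 in SGA CON and 2.33 ± 0.26 in SGA HF. This contrast was picked after the values were seen and carries no test. The HF minus CON differences of the other members were 0.17 for TSC1, 0.029 for MTOR, -0.0014 for MLST8, -0.014 for TSC2, -0.028 for RHEB and -0.14 for AKT1S1, with exact permutation p values from 0.260 to 0.998.

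**Figure D4:**
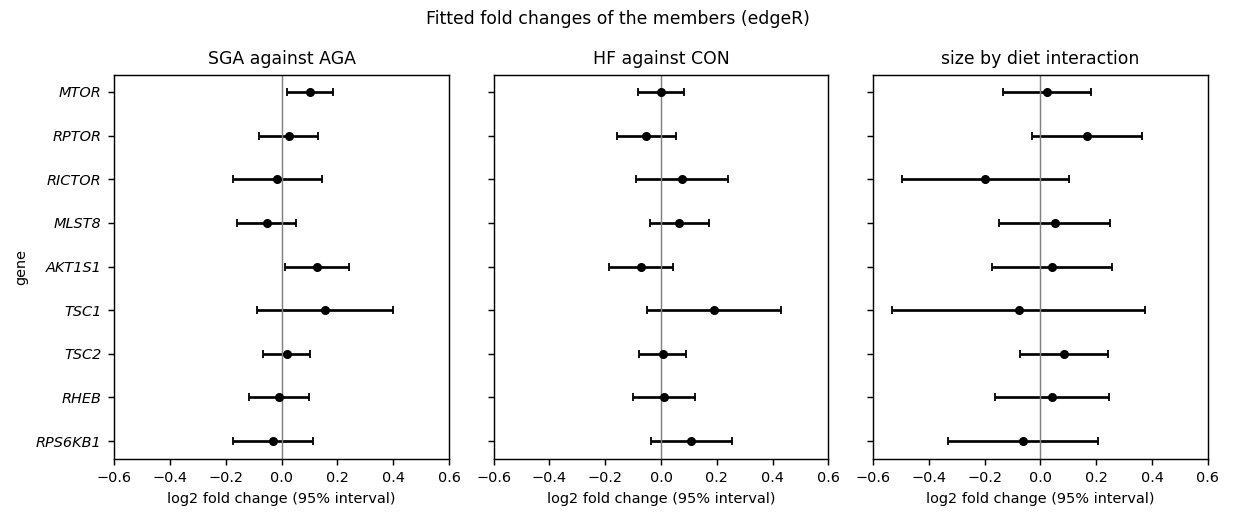
Fitted log2 fold changes of the 9 members with 95% intervals (edgeR) for SGA against AGA, HF against CON and their interaction. Only the size intervals of MTOR (0.018 to 0.18) and AKT1S1 (0.014 to 0.24) leave out 0, and no member passed the FDR threshold in any of the 3 panels.

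The third question was whether the size difference depended on the formula. The fit called 8 genes for the interaction (0.049%) and 0 members, the lowest unadjusted p being that of RPTOR (0.0909, log2 difference 0.17). In the direct comparison of within-litter differences, 1 of the 9 members had an exact p under 0.05, beside 4.36% of all genes. That member was TSC2. Its levels were 160 to 190 CPM in AGA CON (median 179) and 155 to 181 in AGA HF (median 167). In SGA CON they were 149 to 181 CPM (median 172) and in SGA HF 164 to 184 (median 178). Thus the SGA median was below the AGA median on CON and above it on HF, with overlapping ranges. The SGA piglet was higher in 5 of 6 HF litters and in 1 of 6 CON litters. The within-litter difference averaged 0.080 ± 0.057 log2 CPM on HF and -0.063 ± 0.13 on CON, which differ by 0.14 (exact permutation p = 0.0216). Adjusted over all genes that p was 0.989, and the fitted interaction of TSC2 was 0.085 (95% interval -0.072 to 0.24). It was 0.10 without litter 12 (exact p = 0.0390), 0.16 without litter 7, and 0.16 on plain library totals (exact p = 0.0628). Within cohorts it was 0.074 in cohort 1 (exact p = 0.3) and 0.21 in cohort 2 (exact p = 0.1, the smallest that 3 against 3 litters allow). Of the members, TSC2 also had the highest correlation of log2 CPM with log2 total counts (r = 0.42, n = 24), and the part of depth in its values was not tested. TSC1, its partner, had within-litter differences of 0.51 ± 0.85 on HF and 0.17 ± 0.77 on CON (exact p for the difference 0.472).

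The 4 pairwise comparisons of groups called 0 members as well. Across all genes the shares called were 0.129% for SGA CON against AGA CON, 0.288% for SGA HF against AGA HF, 0.0674% for AGA HF against AGA CON and 0.0919% for SGA HF against SGA CON. The member with the lowest FDR p in each was MTOR among HF piglets (0.741, log2 fold change 0.11) and among CON piglets (0.805 for 0.090), RPTOR in AGA piglets (0.760 for -0.14) and MLST8 in SGA piglets (0.853 for 0.091), all by edgeR.

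Cohort and sex were compared over litter means in the same way. AKT1S1 litter means were higher in cohort 2 by 0.23 log2 CPM (exact permutation p = 0.0195), and MLST8 by 0.17 (exact p = 0.0476). Cohort 2 includes litter 12, whose SGA CON piglet had the highest AKT1S1 value. Over all tested genes 12.5% had an exact p under 0.05 for cohort and 5.08% for sex. The 7 other members had exact p values from 0.128 to 0.948 for cohort. For sex, the exact p values of the 9 members ran from 0.0931 (MLST8, -0.15 log2 CPM in males against females) to 0.920. AKT1S1 was at -0.18 in males against females (exact permutation p = 0.108). Cohort 1 held more male litters and cohort 2 more female litters, so the cohort and sex comparisons overlap in part. Litter accounted for 32.5% (MTOR) to 77.8% (RICTOR) of the variance in log2 CPM, size for 32.4% in MTOR and 16.6% in AKT1S1 and for 10.7% or less in the others, and diet for at most 22.0% (RPS6KB1). With 12 litters among 24 libraries, litter takes a large share of the variance whatever its effect.

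The members did not rise and fall together. Over the 24 libraries, Pearson's r between pairs of members ran from -0.61 to 0.63, with 19 of 36 positive and a median of 0.032. MLST8 was most alike with AKT1S1 (0.63) and RHEB (0.52). The most opposite pairs were TSC1 with RHEB (-0.61) and RICTOR with RPTOR (-0.57). These libraries share litters, cohort and a composition scale, so the r values are a description only. Along the first principal component of all tested genes, which held 12.1% of the variance, TSC1 lay at one end (r = 0.78) and MLST8 (-0.73), RHEB (-0.72) and AKT1S1 (-0.55) at the other, whereas MTOR was near 0. RHEB also varied with the summed neuron markers (r = 0.70, n = 24), the highest value over all members and cell types. Its r was 0.62 with granule and pyramidal neuron markers. It was -0.51 with astrocyte, -0.52 with oligodendrocyte progenitor and -0.53 with endothelium markers.

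**Figure D5:**
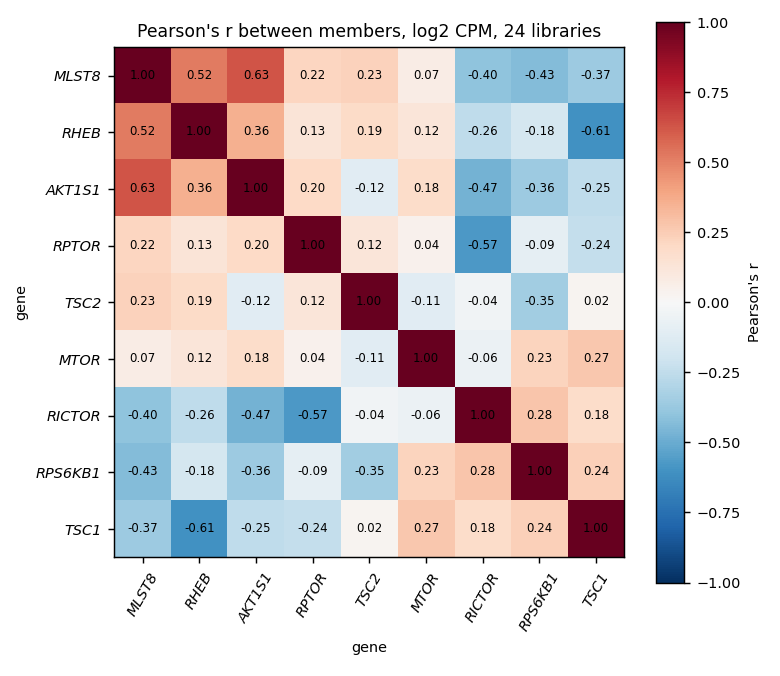
Pearson's r of log2 CPM between the 9 members over 24 libraries, ordered by their correlation with the first principal component. Positive values (red) join MLST8, RHEB and AKT1S1, and the most negative cell is RHEB with TSC1 (-0.61).

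The genes whose pattern was most like that of MTOR over the 24 libraries were GNG2 (a G protein gamma subunit, r = 0.68), ABI2 (an actin regulator, r = 0.65) and RB1 (the retinoblastoma protein, r = 0.65), out of 12362 genes with a symbol. As the highest of so many, these r values are a description only and carry no test. GNG2 was low, at a mean of 2.06 CPM. The nearest member was TSC1 (r = 0.27), with 1439 genes ahead of it. None of GNG2, ABI2 and RB1 was called for size, with fitted log2 fold changes of 0.29, 0.091 and 0.17.

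The rest of the pathway was described through 11 lists of 87 genes, 79 of which were tested. None was called for size, diet or the interaction, and 35, 40 and 42 of the 79 had positive fold changes in these comparisons. The lowest edgeR FDR p values were 0.620 for size (PIK3R2, a PI3-kinase regulatory subunit, log2 fold change 0.12 ± 0.047), 0.428 for diet (PER1, a clock gene that glucocorticoids induce, -0.22 ± 0.060) and 0.655 for the interaction (CASTOR2, of an arginine sensor family, 0.19). The next for diet, chosen after its value was seen, was EIF4EBP1, the translation repressor that complex 1 phosphorylates, at 0.35 ± 0.098 (SE) with an edgeR FDR p of 0.433.

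Among the other subunits and assembly factors of the complexes, 1 of 7 tested genes was higher and 6 lower in SGA, with a median log2 fold change of -0.10 beside -0.0023 for all genes. They included MAPKAP1, a complex 2 subunit, at 0.037, and TELO2, which helps assemble mTOR, at -0.10. The lowest of the list was -0.24, and 0 of the 7 were called. For diet 6 of the 7 were positive with a median of 0.050, led by TELO2 at 0.21 ± 0.066 (edgeR FDR p 0.528). In the list of TSC partners and paralogs, DDIT4L, the paralog of DDIT4, had a size value of 0.073 and a diet value of 0.051, and TBC1D7 had -0.057 and 0.14.

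The amino acid branch brings complex 1 to the lysosome. Of its Rag and Ragulator genes 4 of 10 were positive for size, with a median of -0.022, and its most abundant members LAMTOR1 (147 CPM per kb) and RRAGA (125 CPM per kb) had log2 fold changes of -0.012 and 0.089. In GATOR and KICSTOR, which gate the Rag proteins, 2 of 10 were positive (median -0.035), with NPRL2 at -0.0018 and KPTN at -0.0059. The amino acid sensors had 3 of 6 positive (median 0.0082), CASTOR2 being at 0.047 and CASTOR1 at -0.00071. The diet medians of these 3 lists were 0.010, 0.028 and -0.023.

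Cellular energy acts on the pathway through another branch. AMPK and LKB1 genes, which report low energy, had 3 of 6 positive and a median of 0.0045, with STK11 (LKB1) at 0.019 and PRKAG1 at -0.086. Their diet median was -0.0033. Of the substrates and effectors, 7 of 13 were positive for size (median 0.021) and 4 of 13 for diet (median -0.011). RPS6, the ribosomal protein that the S6 kinases phosphorylate, had a size value of -0.078 ± 0.039, and RPS6KB2, the paralog of RPS6KB1, 0.021 ± 0.040.

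Because DDIT4 was not analysed, the pathways that induce it were listed beside the members. Genes induced by glucocorticoids had 4 of 6 positive values for size (median 0.055) and 1 of 6 for diet (median -0.17), TSC22D3 being at -0.064 for size and near 0 for diet, and PER1 at 0.16 for size. ATF4 pathway genes had 1 of 5 positive for size (median -0.055) and 4 of 5 for diet (median 0.070), with ATF4 at -0.055 and DDIT3 at -0.063 for size. Hypoxia-induced genes were even, with 3 of 6 positive for both size (median 0.014) and diet (median -0.014), with BNIP3 at -0.087 and the glucose transporter gene SLC2A1 at 0.087 for size. No gene of these 3 lists was called.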

How the data were processed

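Hippocampal polyA RNA from 24 piglets was sequenced from a stranded library kit, and the authors deposited raw counts per gene, 1 table per piglet. Per the study's methods and labels they trimmed reads (Trimmomatic 0.33), aligned them to Sscrofa10.2 (STAR 2.5.2a) and counted exon reads on the annotated strand (featureCounts 1.5.0). Identifiers were matched to symbols of a later RefSeq assembly (Sscrofa11.1), and coordinates are those of the deposited tables. An entry with no identifier held 0.613 to 1.62% of counts and was left out. No 2 libraries held identical counts. Members and lists were chosen with earlier results of these data known. The list genes named are the 2 with the highest level per length of each list, and any called, and those named outside this rule are marked. The values of 1 of the 11 pathway lists are not reported here on their own.

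Counts were tested in edgeR 4.0.16 (quasi-likelihood, TMM scaling, group, sex and 5 surrogate variables from sva 3.50.0, at least 1 CPM in at least 3 libraries), with FDR over 7 contrasts jointly and calls under 0.4. The test was tried on simulated counts with no litter or cohort structure and with folds larger than those of the members. It therefore says nothing of shifts as small as theirs. Log2 CPM used a prior count of 2. Exact permutation tests compared littermates (sign flips over 12 litters) and litter means (6 against 6), 27 in all for the 9 members, without adjustment over the members. The labels give the litters, so numbers pair piglets of 1 diet. Littermates' deviations from their group means correlated by 0.15 on average (0.014 to 0.33, 12 pairs). Alternatives were median-of-ratios scaling, other filters, DESeq2 1.42.0, limma voom 3.58.1, other covariates, litter as block, litter sums, single cohorts, and each litter left out.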

Additional observations from a re-analysis of the deposited data

Results flagged for a closer look

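Among 36 sets of 6 values (9 members in 4 groups), 1 held a sample far from the others by Dixon's criterion, which chance flags in about 1 of 20 sets. RHEB in AGA CON replicate 2 was at 35.1 CPM, where the group median was 53.8 CPM.

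The size difference of TSC2 on HF minus that on CON was 0.14 log2 CPM, which passed the exact permutation test of the difference (p = 0.0216, 1 of 9 members tested) and not the fit across all genes.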

How the results depend on the processing

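Of the counts of members called, only that for size changed: MTOR was called when the FDR was taken within each contrast (1 member), and leaving out each litter in turn gave 0 to 1 members, AKT1S1 being called without litter 5. Those settings called 7.35% and 7.75% of all genes, against 0.478% in the fit as reported. Of the exact comparisons, those of MTOR and AKT1S1 for size lost an exact p under 0.05 in each cohort alone, and TSC2 for the difference between diets lost it on plain library totals. Within a cohort, the comparisons of RPS6KB1 for diet and of TSC2 between diets set 3 litters against 3 and cannot go under 0.1, so their p says nothing there. RICTOR for size gained one in cohort 2 alone and without litter 2 or litter 3, and for diet without litter 3, as did RPTOR for diet and TSC1 for size without litter 8. The alternatives for the difference between diets were added after the data were seen. The block on litter and every other setting run called 0 members in each comparison. For size, the block called 420 of 16326 genes, DESeq2 210 and limma voom 53, and each cohort alone called 0 genes. An FDR of 0.05 also called 0 members. At that threshold the fit as reported called 0 genes for size, diet and the interaction, so it says nothing of the members there. Values of members that turned sign are given by setting, and none of them passed its threshold before or after. The cause was not tested. The fitted log2 fold changes in cohort 1 alone were -0.019 (RPTOR) and 0.0089 (RICTOR) for size, and 0.051 (MTOR) and -0.064 (TSC2) for diet, and -0.017 (MLST8), -0.055 (RHEB) and 0.077 (RPS6KB1) for the interaction. With sex and no surrogate variables, they were 0.012 (MLST8) for size, and 0.028 (MTOR), -0.0048 (MLST8), -0.015 (TSC2) and -0.038 (RHEB) for diet, and -0.0012 (MTOR), 0.33 (TSC1), -0.032 (RHEB) and -0.10 (AKT1S1) for the interaction. Replacing the surrogate variables by cohort gave 0.011 (MLST8) for size, and 0.028 (MTOR), -0.0035 (MLST8), -0.016 (TSC2) and -0.035 (RHEB) for diet, and -0.0012 (MTOR), 0.33 (TSC1), -0.034 (RHEB) and -0.10 (AKT1S1) for the interaction. With litter as a replicate block, the fitted values were 0.010 (MLST8) and 0.0012 (RHEB) for size, and -0.0016 (MTOR), -0.0015 (MLST8), 0.30 (TSC1), -0.041 (RHEB) and -0.090 (AKT1S1) for the interaction. Cohort 2 alone gave 0.051 (MLST8), -0.032 (TSC2) and 0.035 (RHEB) for size, and 0.010 (MTOR), -0.023 (MLST8) and -0.13 (RHEB) for diet, and -0.031 (MTOR), 0.017 (RICTOR), 0.67 (TSC1), -0.035 (RHEB) and -0.24 (AKT1S1) for the interaction. No filter on low counts gave 0.0036 (RHEB) for size, and 0.0095 (MTOR), -0.00096 (TSC2) and -0.00012 (RHEB) for diet. limma voom gave 5.7e-05 (MTOR) for diet. The sums of each litter gave 0.028 (MTOR), -0.0019 (MLST8), -0.016 (TSC2) and -0.036 (RHEB) for diet. On plain library totals, the exact comparisons turned to 0.013 (MTOR) and 0.012 (MLST8) for the difference of the size differences between diets, and -0.0038 (MLST8), -0.0065 (TSC2) and -0.012 (RHEB) for the within-litter size difference, and 0.029 (MLST8), 0.016 (TSC2) and 0.0020 (RHEB) for the diet difference of litter means. Over the litters of cohort 1, they turned to 0.030 (MTOR), -0.053 (TSC1), 0.093 (RPS6KB1) and 0.049 (AKT1S1) for the difference of the size differences between diets, and -0.0093 (RPTOR), 0.025 (RICTOR), -0.028 (MLST8), -0.031 (RHEB) and 0.0019 (RPS6KB1) for the within-litter size difference, and 0.023 (MLST8) and 0.077 (RHEB) for the diet difference of litter means. The litters of cohort 2 gave 0.026 (RICTOR) and 0.0056 (MLST8) for the difference of the size differences between diets, and -0.029 (TSC2) for the within-litter size difference, and 0.041 (TSC2) for the diet difference of litter means. Leaving out each litter in turn, the ranges of the results that turned were -0.089 to 0.040 (RICTOR), -0.028 to 0.026 (RHEB) and -0.069 to 0.051 (RPS6KB1) for size in the fit. The same ranges were -0.012 to 0.042 (MTOR), -0.042 to 0.10 (MLST8), -0.049 to 0.020 (TSC2) and -0.090 to 0.041 (RHEB) for diet, and -0.025 to 0.056 (MTOR), -0.0034 to 0.13 (MLST8), -0.18 to 0.14 (TSC1) and -0.20 to 0.034 (RPS6KB1) for the interaction. In the exact comparisons they were -0.033 to 0.031 (MTOR), -0.10 to 0.036 (RICTOR), -0.055 to 0.042 (MLST8), -0.11 to 0.034 (RHEB), -0.12 to 0.011 (RPS6KB1) and -0.17 to 0.021 (AKT1S1) for the difference of the size differences between diets. They were -0.0097 to 0.034 (MLST8), -0.0040 to 0.035 (TSC2), -0.029 to 0.042 (RHEB) and -0.047 to 0.018 (RPS6KB1) for the within-litter size difference, and -0.038 to 0.051 (MLST8), -0.029 to 0.0071 (TSC2) and -0.10 to 0.011 (RHEB) for the diet difference of litter means.

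TSC1 had 30 to 137 counts and RICTOR 92 to 237 per library. Their within-group coefficients of variation were 33.2% and 15.3%, above the counting errors of 10.8% and 8.07%. Differences of a few percent can therefore be missed, and no detection limit was computed for any member. With 6 litters per diet the exact permutation test cannot give a p under 0.0022.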
